A study of Mus musculus with 8 samples.

Results

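Scavenger receptors are surface or secreted proteins that bind modified lipoproteins, dying cells, microbial surfaces and other polyanionic or lipid ligands, most of them to bring the ligand into the cell. The set described here was chosen by gene symbol: Marco, Msr1, Cd36, Olr1, Scarb1, Cd5l, Stab1, Colec12 and Lrp1, which are 9 of 35906 genes with summed estimated counts. The cells were liver macrophages sorted from BALB/c WT mice as CD45-positive and F4/80-positive cells (the series' design text adds CD31-negative, the sample protocol does not), in 4 libraries from mice given vehicle and 4 from mice given carbon tetrachloride (CCl4), a hepatotoxin used to produce liver fibrosis. Both groups thus shared genotype, tissue and sort, and differed by the treatment label. No age is given, nor how much CCl4 was given or for how long. It is not said that each library came from its own mouse, so p-values reflect only the spread among these 8 libraries, part of which may be technical.

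In the liver, clearance of blood-borne waste is shared between Kupffer cells, the resident macrophages of the sinusoids, and the sinusoidal endothelium. Class A receptors (Msr1, Marco, Colec12) are trimeric proteins with a collagen-like stem that bind polyanions. Class B receptors (Cd36, Scarb1) are double-pass proteins that move fatty acids or cholesteryl esters as well as binding oxidised lipoproteins. Olr1 is a lectin-like receptor for oxidised low-density lipoprotein (LDL), Stab1 a very large class H receptor, Lrp1 a large endocytic lipoprotein receptor, and Cd5l a secreted protein of the scavenger receptor cysteine-rich (SRCR) family.

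Library totals ran from 19489104 to 26196063 estimated counts. Adgre1, which encodes F4/80, averaged 1272 and 1187 CPM (counts per library total, TMM-scaled except where genes are summed over a list) in vehicle and CCl4, and Ptprc, which encodes CD45, averaged 512 and 623 CPM. Neither passed the test (edgeR adjusted p = 0.768 and 0.289). Pecam1, which encodes CD31, was present at 73.8 CPM in vehicle and 27.4 CPM in CCl4, and whether CD31-positive cells were gated out is stated in one of these 2 sources but not the other. Vehicle 2 and CCl4 4 stood apart from the others, with the lowest totals, 23025 and 23868 genes with a count against 19265 to 21670, and 3130 and 3072 CPM from olfactory and vomeronasal receptor genes against 610 to 1552. Mitochondrially encoded genes held 1.91% to 5.31% of the counts in vehicle and 0.76% to 1.16% in CCl4. Their part in the results was not tested, but with both libraries left out, and separately with mitochondrial genes left out, each of the 9 receptors kept its direction and its side of the threshold.

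All 9 receptors passed the filter on low counts. Cd36, Olr1 and Colec12 rose in CCl4, Cd5l fell, and Msr1, Marco, Scarb1, Stab1 and Lrp1 did not pass the test. That is 4 of 9 (44.4%) called by edgeR's quasi-likelihood test at an adjusted p under 0.05, where 15.2% of the 15212 genes tested were called (8.93% higher, 6.26% lower). The CPM of the groups did not overlap for the same 4 receptors, against 22.5% of all genes tested. The median log2 fold change was 0.27 over the 9 receptors and -0.03 over all genes. The receptors' median depended on single libraries and on the unit: it was 0.09 without vehicle 2, 0.12 without CCl4 2, 0.03 with length-scaled TPM counts and -0.28 on the log2(FPKM + 1) scale. Scaling moved the median of all genes to -0.16 with library size only and -0.12 with the upper quartile, and under both scalings all 9 receptors kept their direction and call. Except in sums over lists, CPM are scaled by TMM factors. Fold changes are CCl4 over vehicle, and bulk RNA cannot tell fewer cells of a type from less RNA per cell.

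**Figure D1:**
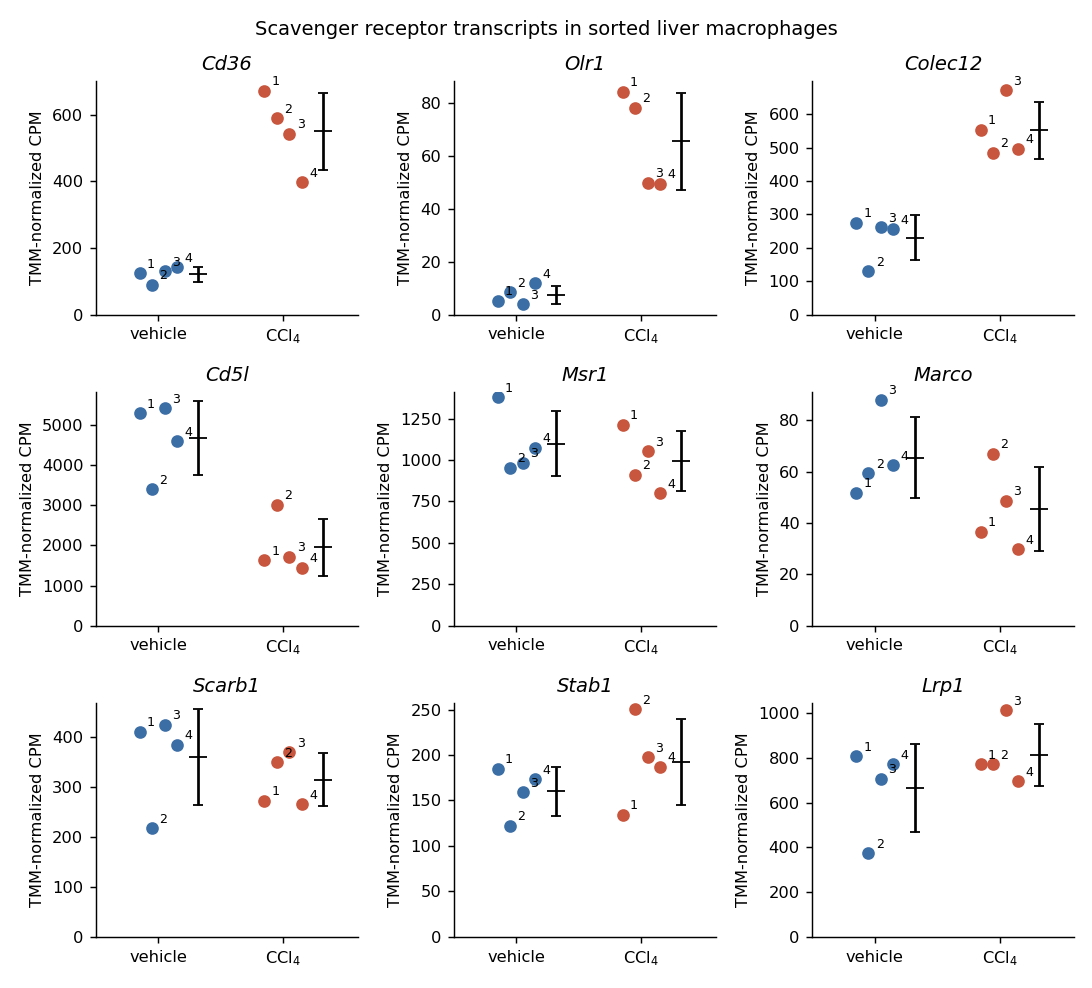
TMM-scaled CPM of the 9 receptors in each of the 4 vehicle and 4 CCl4 libraries (numbered points, linear axes from 0), with the mean ± SD of each group as a black mark and bar. Cd36, Olr1 and Colec12 lie higher in all 4 CCl4 libraries and Cd5l lower, while the other 5 receptors overlap between the groups.

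The sequences upstream of Cd36, Olr1 and Cd5l are shown because these 3 receptors changed most among those with a RefSeq promoter entry. Entries were matched for 6 of the 9 receptors, all but Msr1, Scarb1 and Colec12. Each line gives the 250 bases before the RefSeq gene start, 5′ to 3′ on the gene's strand, from the C57BL/6J reference (GRCm38.p6) and not from BALB/c DNA. Capitals mark matches on either strand to the motifs TGANTCA (AP-1), GAGGAA (PU.1), AGGTCA (a nuclear receptor half-site) or CACGTG (MiT/TFE and other E-box factors).
Cd36, chr5:17835897-17836146, minus strand: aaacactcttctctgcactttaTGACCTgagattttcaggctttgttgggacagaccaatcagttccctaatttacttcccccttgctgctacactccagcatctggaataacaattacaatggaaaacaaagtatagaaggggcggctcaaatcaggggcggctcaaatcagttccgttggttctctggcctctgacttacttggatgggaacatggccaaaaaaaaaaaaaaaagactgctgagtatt
Olr1, chr6:129507166-129507415, minus strand: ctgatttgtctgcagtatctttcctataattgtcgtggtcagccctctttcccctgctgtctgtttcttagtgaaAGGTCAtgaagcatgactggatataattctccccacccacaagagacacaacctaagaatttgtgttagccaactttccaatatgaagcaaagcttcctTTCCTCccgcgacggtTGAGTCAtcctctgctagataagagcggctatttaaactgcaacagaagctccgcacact
Cd5l, chr3:87357631-87357880, plus strand: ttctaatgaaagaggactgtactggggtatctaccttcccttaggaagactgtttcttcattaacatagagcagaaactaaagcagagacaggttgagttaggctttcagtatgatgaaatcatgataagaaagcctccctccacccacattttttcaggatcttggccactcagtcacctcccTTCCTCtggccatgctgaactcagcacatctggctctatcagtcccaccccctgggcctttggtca

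The Cd36 window held AGGTCA on the opposite strand, 228 bases before the start. The Olr1 window held AGGTCA 175 bases, GAGGAA (opposite strand) 76 bases and TGANTCA 60 bases before the start, and the Cd5l window held GAGGAA (opposite strand) 66 bases before it. Among the other matched receptors, Marco held GAGGAA at 146 bases and Stab1 at 30 bases before the start, and Lrp1 held none of the 4 motifs. Of the 6 windows, 4 held GAGGAA, 2 AGGTCA, 1 TGANTCA and 0 CACGTG. Over all 32851 RefSeq windows, which run to 300 bases because they include 50 bases after the start, the shares were 28.3%, 16.3%, 7.81% and 7.15%. These are matches of letters in a short window and do not show binding.

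Cd36, the fatty acid translocase, was by TPM the most abundant in CCl4 of the receptors that rose. In the deposited FPKM its CCl4 mean was 15.85, below the 18.46 of Colec12. Cd36 stood at 124, 89.6, 130.4 and 142 CPM in vehicle 1 to 4 and at 672, 590.0, 543 and 397 CPM in CCl4 1 to 4. The lowest CCl4 library was thus well above the highest vehicle library. The rise was 4.53-fold (log2 fold change 2.18, SE 0.21, edgeR adjusted p = 5.98e-05). The gene lies on chromosome 5, 17781690 to 17888801, on the minus strand (GENCODE M21, mm10).

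Cd36 was transcribed in near-equal parts as a pair of coding transcripts with different first exons. Cd36-203 begins at 17888747, far upstream, and Cd36-206 at 17835717, near the start whose upstream sequence is printed above. Cd36-203 held 48.1% ± 6.6 (SD, n = 4) of the gene's TPM (abundance per length and library) in vehicle and 45.8% ± 4.25 in CCl4, and Cd36-206 held 43.9% ± 4.45 and 44.9% ± 2.27. Both were higher in every CCl4 library: Cd36-203 ran from 23.5 to 37 TPM in vehicle and from 101.7 to 166 in CCl4, and Cd36-206 from 17.3 to 39.9 and from 110.9 to 148.6. The shares themselves did not pass (exact permutation p = 0.571 and 0.686, adjusted 0.75 and 0.791 over 15 transcripts), and their small differences changed sign without vehicle 2 and, for Cd36-206, without vehicle 3.

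Scarb1, the class B receptor that takes up cholesteryl ester from high-density lipoprotein, did not follow Cd36. It stood at 410.4, 218, 424 and 384 CPM in vehicle and 272, 349, 369 and 266 CPM in CCl4, with vehicle 2 lowest of all 8. The log2 fold change was -0.19 (95% interval -0.67 to 0.28, edgeR adjusted p = 0.627), and -0.37 without vehicle 2 (edgeR adjusted p = 0.125). Within libraries, the TPM ratio of Cd36 to Scarb1 went from a geometric mean of 0.32 to 1.67, a difference of 2.38 on the log2 scale (SE 0.17). By TPM the ratio was below 1 in all vehicle and above 1 in all CCl4 libraries, while by the deposited FPKM it was below 1 in 3 of 4 CCl4 libraries as well (geometric means 0.17 and 0.83). The TPM difference had the smallest p that 4 against 4 allows (exact permutation p = 0.0286, adjusted 0.05 over 7 pairs, which equals the threshold and does not pass under it). Scarb1 lies on chromosome 5, 125277087 to 125341094.

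Scarb1 is known to give spliced forms that differ at the cytoplasmic end. Scarb1-201 held 79.7% ± 1.28 of the gene's TPM in vehicle and 78% ± 1.36 in CCl4, and Scarb1-202 held 11.9% ± 1.18 and 13.7% ± 1.12. Neither passed (exact permutation p = 0.114 and 0.0857, adjusted 0.286 for both).

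Olr1, also called LOX-1, had the largest fold change of the 9 and, per length, the lowest mean level in both groups (3.42 TPM in vehicle and 24.3 in CCl4, next to 48.2 and 32.4 for Marco). It was at 5.33, 8.55, 3.88 and 11.9 CPM in vehicle and at 84.4, 78.3, 50.0 and 49.5 CPM in CCl4, from 98 counts in the library with fewest to 1986 in that with most. CCl4 1 and 2 were the highest and no library of either group came near the other group. The rise was 8.84-fold (log2 fold change 3.14, SE 0.34, edgeR adjusted p = 0.000139). On the log2(FPKM + 1) scale of the deposited FPKM, where the added 1 understates the change of low genes, the difference was 1.24 (limma adjusted p = 7.69e-05). The gene lies on chromosome 6, 129485244 to 129507165.

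Nearly all Olr1 in CCl4 was the longest coding transcript, Olr1-201, with 98.2%, 96.3%, 98.1% and 93.7% of the gene's TPM, against 70.7%, 76.6%, 76.7% and 83.5% in vehicle. The short Olr1-203 (570 nucleotides) held 21% ± 3.23 in vehicle and 2.7% ± 2.48 in CCl4, at under 1.4 TPM in every library. The groups did not overlap for either transcript, and neither share passed (exact permutation p = 0.0286, adjusted 0.214 over 15 transcripts). That p is the smallest that 4 against 4 allows. After adjustment it can pass only if most of the 15 transcripts reach it together. Relative to Cd36, which also binds oxidised lipoprotein, the level of Olr1 did not pass the test between groups: the log2 TPM ratio averaged -4.31 ± 0.78 in vehicle and -3.59 ± 0.32 in CCl4 (n = 4 each, exact permutation p = 0.171, adjusted 0.2).

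**Figure D2:**
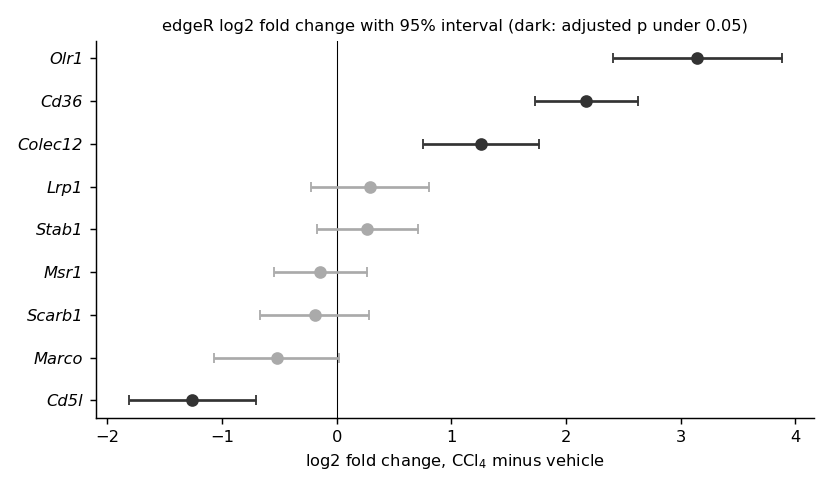
Log2 fold change of each receptor, CCl4 over vehicle, with its 95% interval from the edgeR fit over all genes (points and bars, dark where the adjusted p is under 0.05). The intervals of Cd36, Olr1 and Colec12 lie above 0 and that of Cd5l below it, and the other 5 include 0.

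Msr1, the macrophage class A receptor for acetylated lipoprotein, is made in long and short forms, and the bases that tell them apart are shown for that reason. Lower case gives the end of exon 8, shared by both transcripts (chr8:39608085-39608099), and capitals the start of exon 9, at chr8:39589464-39589478 in Msr1-201 and chr8:39605968-39605982 in Msr1-202 (minus strand, 5′ to 3′, from the GENCODE M21 transcripts of mm10).
Msr1-201: gtgtaggcggatcaaCCCCCCTTAAGACAG
Msr1-202: gtgtaggcggatcaaGATCAGTATAACTCC

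The first continues into a C-terminal SRCR domain and codes for 458 residues (type I). The second reaches a stop after 8 coding bases of exon 9 and codes for 354 residues (type II). Type I held 47%, 51.1%, 48.2% and 47.6% of Msr1 TPM in vehicle and 44.6%, 46.3%, 48.3% and 48% in CCl4. Type II held 41.3%, 35%, 39.5% and 42% in vehicle and 44.6%, 48%, 41.6% and 43.5% in CCl4. By TPM, type I exceeded type II in all libraries but CCl4 2, by most in vehicle 2. In CCl4 1 the forms were near-equal, at 303.6 and 303.2 TPM. By CPM, which do not divide by length, type II exceeded type I in all libraries, at 970 against 378 CPM in vehicle 1. No shift in TPM share passed (exact permutation p = 0.286 and 0.0571, adjusted 0.612 and 0.286).

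Summed over transcripts, Msr1 was at 1380.2, 954, 984 and 1073 CPM in vehicle and 1213, 912, 1052 and 799 CPM in CCl4. The groups overlapped, and the log2 fold change was -0.14 (95% interval -0.55 to 0.26, edgeR adjusted p = 0.678), with a value of 0.0010 without vehicle 1. The geometric mean TPM ratio of Msr1 to Colec12 went from 8.4 to 2.88, a log2 difference of -1.54 (SE 0.24), with no overlap (exact permutation p = 0.0286, adjusted 0.05). Msr1 lies on chromosome 8, 39581685 to 39642673.

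Marco, a class A receptor of marginal zone and Kupffer macrophages, was the least abundant of the class at 51.8, 59.4, 88 and 62.5 CPM in vehicle and 36.7, 67, 48.6 and 29.7 CPM in CCl4. CCl4 2 lay within the vehicle range and the other CCl4 libraries below it. The log2 fold change was -0.52 (95% interval -1.07 to 0.02, edgeR adjusted p = 0.194). The ratio of Msr1 to Marco ranged widely in both groups and did not pass, at a log2 difference of 0.32 (SE 0.39, exact permutation p = 0.429). Marco lies on chromosome 1, 120474538 to 120505024.

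Colec12 was the class A receptor that rose. Colec12 (collectin placenta 1) carries a C-type lectin domain in addition to the collagen-like stem. It was at 276, 129.6, 261 and 256 CPM in vehicle and at 554, 485, 672 and 497 CPM in CCl4. Vehicle 2 was far below the other vehicle libraries, and the groups did not overlap with or without it. The rise was 2.39-fold (log2 fold change 1.26, SE 0.23, edgeR adjusted p = 0.00352), and 1.06 on the log2 scale without vehicle 2 (edgeR adjusted p = 0.000943). The receptor is also known from vascular endothelium. The listed markers of liver sinusoidal endothelium summed to 807 to 1406 CPM in vehicle and 584 to 744 in CCl4. They include Fcgr2b, also a macrophage Fc receptor, which rose. The part of endothelial cells in Colec12 was not tested. The gene lies on chromosome 18, 9707595 to 9882644. Colec12-201, which the annotation types as a target of nonsense-mediated decay, made up most of the gene at 70.8 ± 24.1 TPM in vehicle and 168.1 ± 14 in CCl4. The coding transcript Colec12-204 stood at 6.92 ± 1.76 and 14.3 ± 1.64 TPM.

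Cd5l, also known as apoptosis inhibitor of macrophages, is secreted by tissue macrophages and is a product of Kupffer cells. It stood at 5284, 3399.9, 5406 and 4591 CPM in vehicle and at 1635, 3005, 1715 and 1439.8 CPM in CCl4. CCl4 2 kept the most, yet by CPM remained below the lowest vehicle library, vehicle 2. In the deposited FPKM the groups overlapped, with CCl4 2 at 248.6 and vehicle 2 at 235.4. The fall was 2.40-fold (log2 fold change -1.26, SE 0.25, edgeR adjusted p = 0.00581), with a range of -1.55 to -1.14 when each library was left out in turn. The gene has a single annotated transcript in these files and lies on chromosome 3, 87357881 to 87371073.

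Cd163, the haemoglobin receptor of the same SRCR family, averaged 995 ± 378 CPM in vehicle and 104.1 ± 34.3 in CCl4, a fall of 9.56-fold (edgeR adjusted p = 0.000132, log2 fold change -3.26, SE 0.35). The geometric mean TPM ratio of Cd5l to Cd163 went from 10.4 to 39.9, a log2 difference of 1.94 (SE 0.23, exact permutation p = 0.0286, adjusted 0.05), with every CCl4 library above every vehicle library. All 8 Kupffer cell markers listed fell, beside 6.26% lower over all genes tested. Their median was -2.03 on the log2 scale, and their summed level was 20453 to 28110 CPM in vehicle and 5178 to 9045 in CCl4. They include Timd4 (log2 fold change -2.45), Fcna (-2.86) and Clec4f (-1.72), all past the edgeR threshold, and between 6 and 8 of the 8 passed when single libraries were left out. Whether the lower Cd5l goes with fewer such cells was not tested.

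Stab1, a receptor of sinusoidal endothelium and of some macrophages, did not pass. It was at 185, 122, 159 and 173 CPM in vehicle and 134.5, 250.5, 198 and 187 CPM in CCl4, so that the groups overlapped with CCl4 2 at the top. The log2 fold change was 0.27 (95% interval -0.17 to 0.71, edgeR adjusted p = 0.434) on the counts and -0.07 on the deposited FPKM, so that no direction can be given. Its relative Stab2, a hyaluronan receptor of sinusoidal endothelium, went from 236, 108, 266 and 265 CPM in vehicle to 69.8, 98.5, 99 and 62.1 CPM in CCl4 (log2 fold change -1.41, SE 0.28, edgeR adjusted p = 0.00502). Vehicle 2 was again the lowest of its group, near CCl4 3.

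The TPM ratio of Stab1 to Stab2 went from a geometric mean of 0.63 to 2.13, a log2 difference of 1.75 (SE 0.24, exact permutation p = 0.0286, adjusted 0.05). The side of 1 on which the ratio lay depended on the unit. By TPM it was below 1 in every vehicle and above 1 in every CCl4 library, and by estimated counts vehicle 2 also lay above 1. In the deposited FPKM it was above 1 in all 8 libraries, with a log2 difference of 1.36 (exact permutation p = 0.0857, adjusted 0.12). With retained-intron transcripts left out, it was below 1 in all 8. Of 14 endothelial markers, which include Stab2 and Pecam1, 11 fell and 1 (Fcgr2b, also a macrophage Fc receptor) rose. Over all genes tested, 6.26% fell and 8.93% rose. The median of all 14 markers was -1.22 on the log2 scale. Their summed level was 807 to 1406 CPM in vehicle and 584 to 744 in CCl4. Without vehicle 4, 6 of them fell. The part of endothelial RNA in the Stab1 values was not tested.

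Most Stab1 signal per length was not assigned to the complete coding transcript. Stab1-201 (7999 nucleotides) held 6.73% to 19% of the gene's TPM in vehicle and 14.3% to 20.9% in CCl4. Transcripts annotated with a retained intron held 80.9% to 93.3% in vehicle and 77% to 85.3% in CCl4. By estimated counts, which do not divide by length, the retained-intron share was 48.9% to 73.7% in vehicle and 46.4% to 55.3% in CCl4. Stab1 lies on chromosome 14, 31139013 to 31168641, and its end overlaps Nt5dc2 on the other strand. The protocols name no step that marks strand, so reads in that overlap cannot be told apart.

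Lrp1, an endocytic receptor for many ligands, among them apolipoprotein E and protease complexes, did not pass either. It was at 808, 375, 707 and 771 CPM in vehicle and 770.2, 772, 1012 and 694 CPM in CCl4. Vehicle 2 was low beside 7 libraries between 694 and 1012, and the log2 fold change was 0.29 (95% interval -0.23 to 0.80, edgeR adjusted p = 0.48) on counts and -0.37 on FPKM, again with no direction to be given. Without vehicle 2 the count-based value was 0.09. Lrp1 lies on chromosome 10, 127538161 to 127621148, and overlaps the antisense gene Gm16217.

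The coding transcript Lrp1-201 (14888 nucleotides) held 52.5%, 25%, 55.6% and 56.1% of Lrp1 TPM in vehicle and 53.8%, 48%, 65.3% and 58.6% in CCl4. A retained-intron transcript of 763 nucleotides at the 3′ end, Lrp1-208, held 26.2%, 67.9%, 30% and 30.1% in vehicle and 17.7%, 31.5%, 9.82% and 13.7% in CCl4. Vehicle 2 was the library apart in both, and neither share passed (exact permutation p = 0.371 and 0.114, adjusted 0.619 and 0.286). By estimated counts, all retained-intron transcripts of Lrp1 together held 2.95% to 10.3% of a library's Lrp1. The short transcript therefore weighs far more in TPM than in counts.

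**Figure D3:**
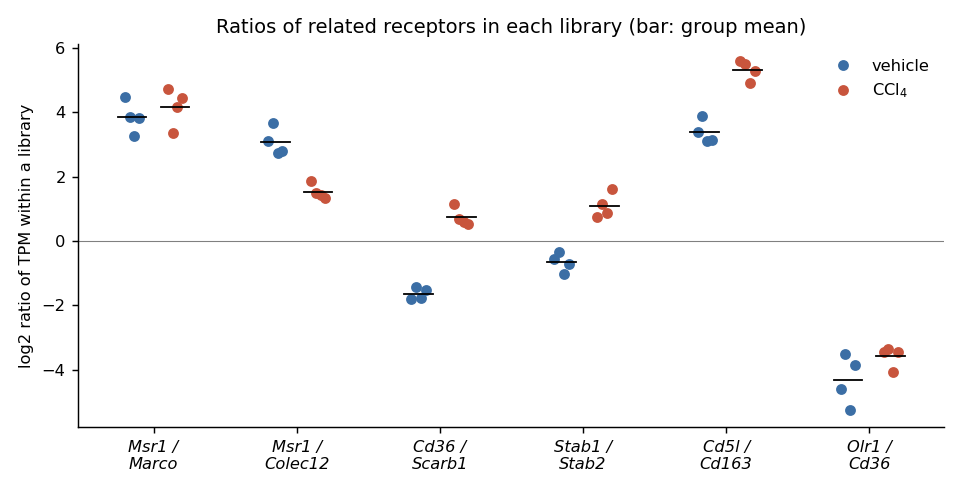
Log2 ratio of the TPM of related receptors within each library, for 6 pairs (points: 4 vehicle and 4 CCl4 libraries, black lines: group means). Msr1/Colec12, Cd36/Scarb1, Stab1/Stab2 and Cd5l/Cd163 do not overlap between groups, and Msr1/Marco and Olr1/Cd36 do.

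**Figure D4:**
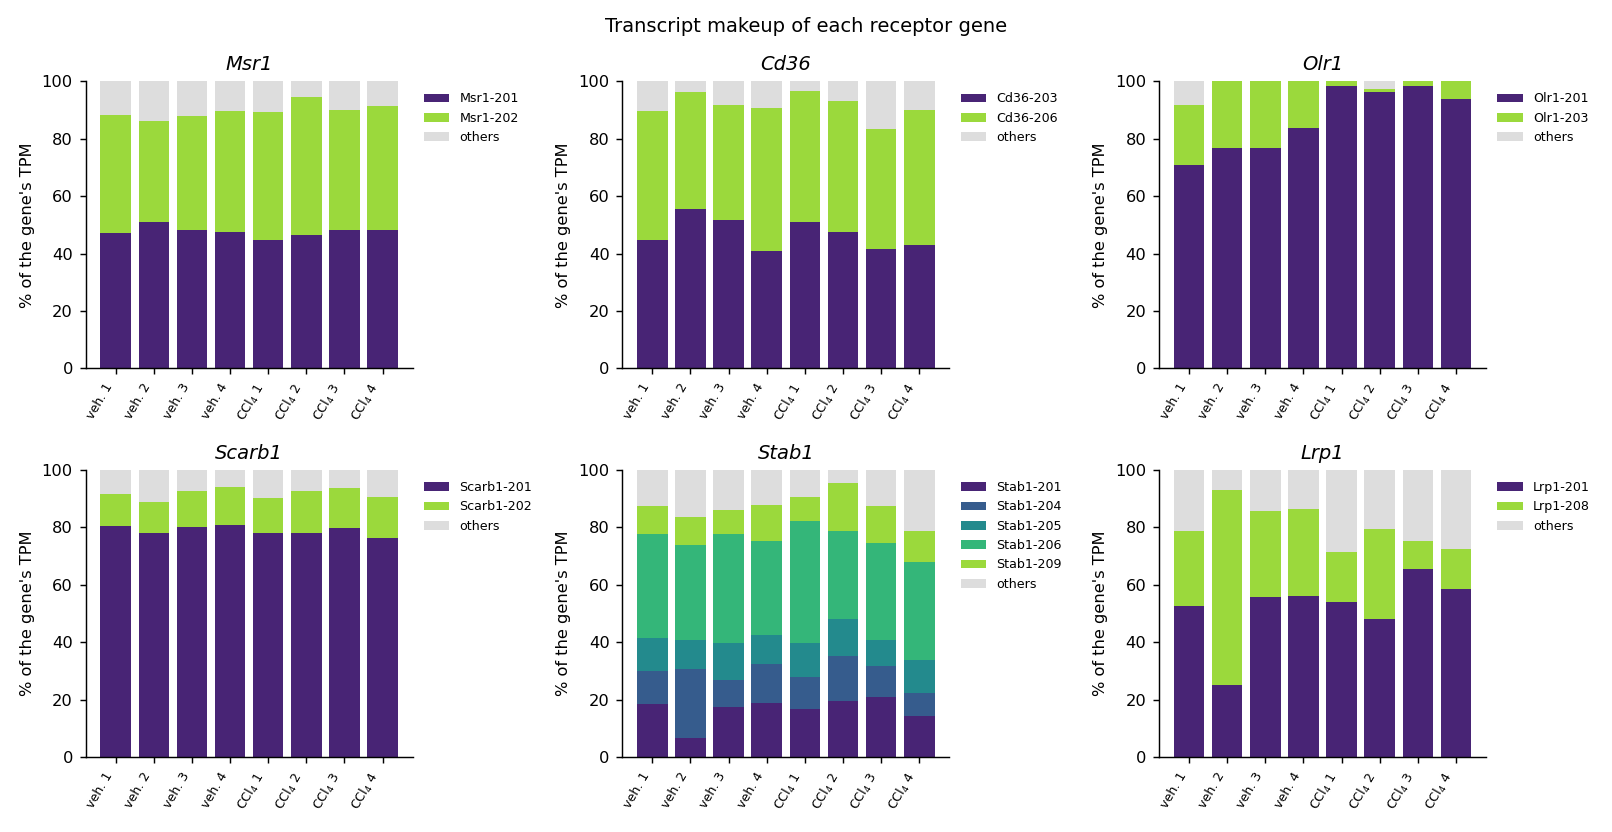
Share of each gene's TPM held by its transcripts with a mean share of at least 10%, per library (stacked bars, the rest in grey). Olr1-201 fills nearly all of Olr1 in the CCl4 libraries, and vehicle 2 differs from the others in Lrp1 and Stab1.

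Per length, Cd5l was the most abundant of the 9 in both groups, at 3212 ± 724 TPM in vehicle and 1308 ± 487 in CCl4, followed by Msr1 at 682 ± 91.5 and 565 ± 80.5. In vehicle the order went on with Scarb1 (203 ± 59.6), Lrp1 (109.8 ± 6.91), Colec12 (84.4 ± 25.3), Stab1 (73.1 ± 3.97), Cd36 (64.2 ± 16.2), Marco (48.2 ± 13.8) and Olr1 (3.42 ± 1.6 TPM). Neighbours from Colec12 to Marco, and Scarb1 with Lrp1, overlapped in their libraries. In CCl4, Cd36 came next at 285 ± 39.3 TPM, then Colec12 at 195.5 ± 14.1, ahead of Scarb1 (170.3 ± 19.4), Lrp1 (109.5 ± 9.81), Stab1 (81.2 ± 22.7), Marco (32.4 ± 11.4) and Olr1 (24.3 ± 6.62). There Colec12 overlapped Scarb1, and Marco overlapped Olr1. This order is that of TPM, and the deposited FPKM gave another. There the CCl4 means were 18.72 for Scarb1, 18.46 for Colec12 and 15.85 for Cd36. The place of Colec12 rests mostly on Colec12-201, typed as a target of nonsense-mediated decay (168.1 TPM in CCl4). The places of Lrp1 and Stab1 include their retained-intron transcripts. The complete coding Lrp1-201 alone stood at 52.4 ± 17.9 and 61.4 ± 5.7 TPM.

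The 9 genes summed to 3183 to 5146 TPM in vehicle and 2468 to 3512 in CCl4, and without Cd5l to 1013 to 1404 and 1383 to 1557. Cd5l held 71.3% ± 2.71 of the sum in vehicle and 46.1% ± 8.05 in CCl4. Cd36 went from 1.43% ± 0.18 to 10.4% ± 1.66, Colec12 from 1.85% ± 0.28 to 7.26% ± 1.54, and Msr1 from 15.5% ± 2.62 to 21% ± 4.94. Shares of a sum move together, so a fall of Cd5l raises the other shares by itself.

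**Figure D5:**
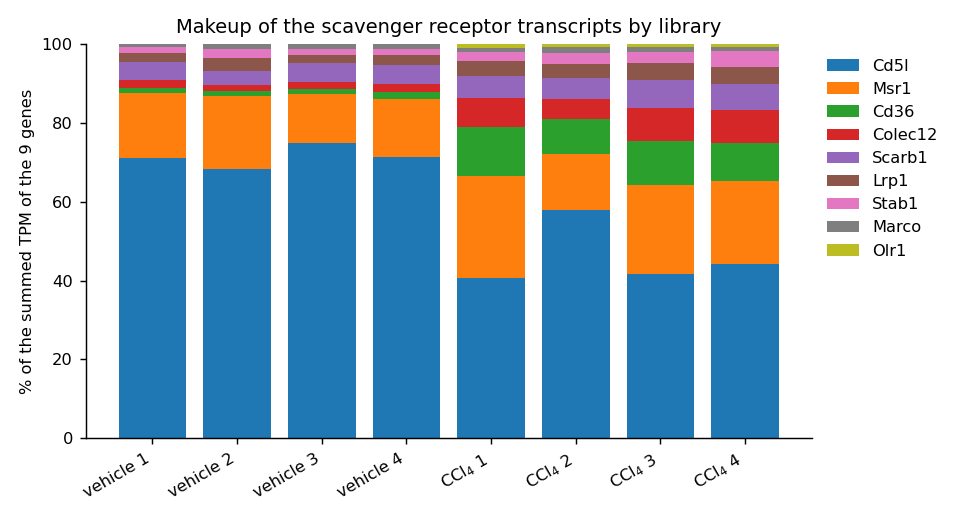
Share of the summed TPM of the 9 receptors held by each of them, per library (stacked bars). Cd5l fills 68.2% to 74.8% of the vehicle bars and 40.6% to 58% of the CCl4 bars, where Cd36 and Colec12 are wider.

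Other receptors that bind modified lipoproteins, haemoglobin or sugars moved in both directions. Of 15 tested, 2 rose and 3 fell, beside 8.93% higher and 6.26% lower over all genes tested. Their median log2 fold change was -0.35. It came to -0.15, -0.12, -0.07 and -0.16 without vehicle 4, CCl4 1, CCl4 3 and CCl4 4, and to 0.07 on the log2(FPKM + 1) scale. Clec7a, the beta-glucan receptor dectin-1, rose 3.42-fold from 655 ± 160.7 to 2242 ± 294 CPM (edgeR adjusted p = 0.000165). Cd163 and Stab2 fell, as given above. The other risen and fallen genes, named after their values were seen, were Cxcl16 (0.75, edgeR adjusted p = 0.0174), a transmembrane chemokine that binds oxidised LDL, and the mannose receptor Mrc1 (-0.74, edgeR adjusted p = 0.0262). Without vehicle 3 or 4, 1 rose, and 2 fell without vehicle 1, 3 or 4 or CCl4 1 or 4. Cd68, the most abundant, did not pass at 1800.4 ± 123 and 2167 ± 383 CPM (0.27, edgeR adjusted p = 0.338).

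Of 14 tested genes of the lipoprotein receptor family and its partners, 6 rose and 1 fell. Over all genes tested, 8.93% rose and 6.26% fell. The list's median log2 fold change was 0.52. Sort1, a sorting receptor, rose 5.27-fold from 5.44 ± 0.69 to 28.7 ± 2.62 CPM (edgeR adjusted p = 7.58e-06). The related Sorl1 rose from 12.9 ± 4.28 to 59.3 ± 5.19 CPM (4.60-fold) and Lrp12 from 11.9 ± 3.39 to 59.4 ± 13.7 CPM (4.96-fold). Lpl, lipoprotein lipase and the most abundant of the list, rose 2.82-fold from 471 ± 70.5 to 1329 ± 323 CPM (edgeR adjusted p = 0.00051). The gene that fell was Mylip, whose product marks lipoprotein receptors for degradation (-0.65, edgeR adjusted p = 0.0182, named after its value was seen), and it did not pass without vehicle 1 or 3.

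Of 12 genes that handle lipid after its uptake, 7 rose and 0 fell, beside 8.93% higher and 6.26% lower over all genes tested. Their median log2 fold change was 0.76. The fatty acid binding proteins Fabp5 and Fabp4 rose from 2.44 ± 0.74 to 103.8 ± 20.9 CPM (5.41, SE 0.26) and from 6.38 ± 1.67 to 34.5 ± 16 CPM (2.43, SE 0.35). Nceh1, a cholesteryl ester hydrolase, rose 2.21-fold from 109.5 ± 12.2 to 242 ± 37.9 CPM (edgeR adjusted p = 0.000512). Apoe, a ligand of Lrp1, was the most abundant at 43639 ± 5685 and 72748 ± 16074 CPM (0.74, SE 0.20, edgeR adjusted p = 0.0309). Leaving out vehicle 2, 3 or 4 or CCl4 3 ended the call (edgeR adjusted p = 0.0526, 0.0933, 0.0804 and 0.06). Some other processing alternatives ended it as well, so that it held in 11 of 20 alternatives.

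Of 11 transcription factors known to act on these receptors, 1 rose and 5 fell, beside 8.93% higher and 6.26% lower over all genes tested. Their median log2 fold change was -0.60. Pparg, a nuclear receptor known to drive Cd36, rose 2.35-fold from 21.2 ± 6.48 to 49.9 ± 8.65 CPM (edgeR adjusted p = 0.00219). Nr1h3, the oxysterol receptor LXR-alpha, which acts on Cd5l, fell 1.95-fold from 277 ± 43.8 to 142 ± 31.1 CPM (edgeR adjusted p = 0.00499), and Spic 3.37-fold from 342 ± 70.5 to 101.5 ± 30.7 CPM (edgeR adjusted p = 0.000364). Id3, the most abundant, fell from 925 ± 119 to 514 ± 150.1 CPM (-0.85, edgeR adjusted p = 0.0195). Leaving out vehicle 3 or 4 or CCl4 1 or 3 ended that call (edgeR adjusted p = 0.0663, 0.0569, 0.0509 and 0.0594). When single libraries were left out, 2 to 5 factors fell, with 2 without vehicle 3, CCl4 1 or CCl4 3 and 3 without vehicle 1, vehicle 4 or CCl4 4. Whether any of these factors accounts for a receptor's change was not tested.

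Of 16 partners that signal or bind beside the receptors, 3 rose and 2 fell, beside 8.93% higher and 6.26% lower over all genes tested. Their median log2 fold change of 0.01 ran from -0.11 to 0.07 when single libraries were left out. The tetraspanin Cd9, which associates with Cd36, rose 6.62-fold from 68.2 ± 29.2 to 451 ± 187 CPM (edgeR adjusted p = 0.000515), and the tetraspanin Cd81 fell 2.75-fold from 1896 ± 173 to 691 ± 86.7 CPM (edgeR adjusted p = 0.000152). The kinase Syk, which acts below several such receptors, was at 239.8 ± 68.6 and 426 ± 66.3 CPM (0.83, edgeR adjusted p = 0.0223), which did not hold without vehicle 3, vehicle 4 or CCl4 1 (edgeR adjusted p = 0.0672, 0.0602 and 0.0654). Leaving out vehicle 3, vehicle 4 or CCl4 1 left 1 that rose, and leaving out any 1 library left 1 that fell. C1qb, the most abundant, did not pass at 6294 ± 293 and 4598 ± 1061 CPM (-0.45, edgeR adjusted p = 0.138).

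Markers of other liver cells moved with the treatment as well, and their part in the receptor values was not tested. The counts below stand beside 8.93% higher and 6.26% lower over all genes tested. Of 8 genes shared by all macrophages, 1 rose (Lyz2) and 1 fell (Aif1), with a median log2 fold change of 0.02. Their summed level was 23936 to 28126 CPM in vehicle and 47843 to 54912 in CCl4. All 5 mesothelial markers rose, from a summed 1.43 to 9.39 CPM in vehicle to 44.3 to 129.6 in CCl4, with Lrrn4 at 0 counts in vehicle 2. Of 7 neutrophil markers 3 rose, from a sum of 35 to 93.7 CPM to one of 77.6 to 270.0, and 1 rose without vehicle 3 or CCl4 1, 2 without CCl4 2, and 6 without vehicle 4 or CCl4 4. Of 11 stellate cell and fibroblast markers 4 rose, led by Col1a1, and 3 fell, with sums of 152 to 586 and 191 to 330.2 CPM, and vehicle 2 highest. Hepatocyte (8 tested), B cell (5 tested) and platelet (4 of 6 tested) markers had 1 fall each. Leaving out any single one of vehicle 1, 3, 4 and CCl4 1, 2 left the hepatocyte gene with an adjusted p above 0.05. The same was true of the B cell gene for vehicle 1, 3, 4 and CCl4 1, 3, 4, and of the platelet gene for vehicle 1, 2, 4 and CCl4 1, 3, 4. Sums for hepatocyte markers were 84.1 to 138 CPM in vehicle and 51.6 to 93.8 in CCl4, for B cell markers 69.7 to 110.5 and 34.1 to 70.1, and for platelet markers 88.5 to 223 and 29.2 to 93.6.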

How the data were processed

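For each of the 8 libraries the authors deposited kallisto output: estimated counts and TPM of every transcript. TPM are scaled to a fixed total within a library and the estimated counts are not normalized between libraries. A gene-level FPKM matrix was also deposited, and how it was made is not stated. The tools kallisto, edgeR and limma and the build mm10 are named, without versions or roles, per the submitters' processing notes. Per the labels' protocols, cells from collagenase-digested liver were sorted and RNA was amplified with SMART-Seq HT. Effective transcript lengths from the files served for the length-scaled counts. Transcript lengths gave the sizes printed here, and both gave the gap between length and effective length described below.

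Transcripts were matched to GENCODE M21 by identifier without version (116405 of 117494, 13 with version, so transcript models may differ). The unmatched held 0.29% to 0.313% of a library's counts. Estimated counts were summed per gene and rounded, and TPM summed. edgeR 4.0.16 (R 4.3.3) tested 15212 genes left by filterByExpr (minimum count 10, minimum total 15) with the quasi-likelihood F test on TMM-scaled counts, a design with group alone, two-sided p and Benjamini-Hochberg adjustment over all genes and a threshold of 0.05. The SE is the log2 fold change divided by the square root of F. Ratios and transcript shares used two-sided exact permutation tests, whose smallest p with 4 against 4 is 0.0286. The p-values of ratios were adjusted over 7 pairs, of which 1 is not reported here, and 1 listed gene is not reported either. limma 3.58.1 on log2 FPKM with a pseudocount and DESeq2 1.42.0 were alternatives. The 1 unnamed FPKM line (0.0156% to 0.0369% of a column) was left out. The edgeR step was tested on simulated data.

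The receptors, the gene lists, the motifs and most alternatives were chosen with earlier results of these data known. Besides the 9 receptors, their pair genes and the sort genes, at most 4 genes per list were named by rule: up to 3 with the largest fold change among those past the threshold without overlap between groups, and the most abundant by TPM. Exceptions are marked.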

Additional observations from a re-analysis of the deposited data

Results flagged for a closer look

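Of 60 sets of 4 library values examined for the receptors, their ratios and their transcript shares, 5 had a library far from the other 3 (Dixon's ratio above its 95% critical value). Chance gives about 1 in 20 for separate sets. These sets are not independent, since shares of a gene move together and ratios reuse the receptors' values. In 4 of the 5 the library apart was vehicle 2. It had 129.6 CPM of Colec12 against 256 to 276 in the other vehicle libraries. It had 25% of Lrp1 TPM in Lrp1-201 against 52.5% to 56.1%, 67.9% in the short 3′ transcript Lrp1-208 against 26.2% to 30.1%, and 6.73% of Stab1 TPM in Stab1-201 against 17.5% to 19%. The same library had the smallest gap between transcript length and effective length, 249 bases against 260.5 to 280.1 in the other 7, and its part in these values was not tested. In CCl4 3 the log2 TPM ratio of Olr1 to Cd36 was -4.06, against -3.47 to -3.37 in the other CCl4 libraries.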

How the results depend on the processing

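Cd36 and Olr1 kept their direction and call under all 20 alternatives, as did the uncalled Marco and Scarb1. Over the deposited FPKM with no filter on low values, Cd5l (-1.40, limma adjusted p = 0.0809) and Colec12 (1.14, limma adjusted p = 0.0859) no longer passed, and both passed under the other 19 alternatives. The uncalled Stab1 changed sign on the 3 FPKM scales (-0.0706 with a pseudocount of 1, with or without the filter, and -0.0814 with 0.1), as did Lrp1 (-0.37 and -0.39), and Msr1 ran from -0.24 to 0.0010 when single libraries were left out. The cause was not tested.

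Over all genes, 448, 436 and 335 were higher and 543, 521 and 315 lower with FPKM and a pseudocount of 1, of 0.1, and of 1 with no filter, where fewer genes or another unit were tested. Library size alone gave 1082 higher and 1431 lower, so that 43.1% of calls were higher against 58.8% with TMM, and the upper quartile gave 1226 and 1356 (47.5%). Leaving out single libraries gave 1004 to 1503 higher and 578 to 1163 lower, with 578 without CCl4 1. Of the gene lists, the FPKM scales gave 0 mesothelial and 1 stellate gene that rose, 3 to 5 endothelial genes that fell, and, with no filter, 3 lipid-handling genes that rose and 1 transcription factor that fell. With FPKM and no filter the medians were -0.53 for endothelial genes, 0.11 for the lipoprotein receptor list and -0.01 for other scavenger receptors.

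With retained-intron transcripts left out, 4 of the 6 ratios given here passed (exact permutation p adjusted over 7 pairs = 0.04 for each), in an alternative chosen after seeing the data: Msr1/Colec12 at -1.58, Cd36/Scarb1 at 2.41, Stab1/Stab2 at 1.90 and Cd5l/Cd163 at 1.85. Their unadjusted exact permutation p, 0.0286, was the same in both settings, so the move from 0.05 to 0.04 lies in the adjustment and shows no larger effect. No transcript share passed under any of the 9 or 10 alternatives that gave it a value. With so few libraries the smallest exact p passes the adjustment only if most transcripts reach it together, so this does not show that shares were unchanged. By estimated counts the difference in the Stab1-206 share was -1.80 percentage points against 0.25 by TPM. With single libraries left out, differences in share ran from -4.74 to 0.11 for Cd36-203, -0.33 to 2.90 for Cd36-206, -0.45 to 3.64 for Stab1-201, -0.36 to 0.88 for Stab1-205 and -2.17 to 1.72 for Stab1-206.

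The replicate numbers are not said to pair the samples. Each gene's deviation from its group mean (log2 CPM) was correlated between same-numbered libraries, at 0.02, -0.24, 0.04 and -0.17. In no same-numbered pair was each library the best match of the other. These correlations cannot exclude a shared batch. With the replicate number as a block, 1281 genes were higher and 829 lower, no receptor changed its call, and no ratio could fall under an exact p of 0.125.

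With 4 libraries a group, intervals of the uncalled receptors reach changes of 1.07 on the log2 scale (Marco, lower) and 0.80 (Lrp1, higher), so changes up to those sizes remain possible. Olr1 in vehicle rested on as few as 98 counts. The shares of Stab1, Lrp1 and Colec12 depend on how kallisto divides reads between overlapping transcripts.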
